A study of Mus musculus with 9 samples.

Results

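The interferon regulatory factors are a family of DNA-binding proteins, and 7 of their genes are described here: Irf1, Irf2, Irf3, Irf5, Irf7, Irf8 and Irf9. They were taken by symbol from the deposited expression table, and all 7 were found among its 17730 genes. The libraries came from primary astrocytes of newborn C57BL/6 mice of wild-type genotype, cultured with medium conditioned by microglia. For the LPS-MCM group those microglia had first received LPS, the lipopolysaccharide of bacterial outer membranes and the ligand of Toll-like receptor 4. For the Hemin-MCM group they had first received hemin, which hemoglobin releases on breakdown. Each group held 3 libraries. The series also has a group given medium of resting microglia, which was not analysed here because 3 further value columns of the table carry names that match no sample label. Every difference below is LPS-MCM relative to Hemin-MCM, and which of the groups departs from resting medium was not tested. The labels name no separate cultures or animals for the 3 libraries of a group, so the spread behind each p-value is that between libraries and may be technical.

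Interferon regulatory factors bind DNA through a domain that recognises GAAA-type sequences, and they connect the sensing of microbes and of interferon to transcription. IRF3 and IRF7 are phosphorylated by the kinases TBK1 and IKK-epsilon and switch on interferon genes, and IRF9 is part of the complex ISGF3 that acts downstream of the type I interferon receptor. IRF1 activates and IRF2 mostly restrains many of the same promoters. IRF5 and IRF8 are best known from macrophages, microglia and other immune cells, where IRF5 drives inflammatory cytokines and IRF8 directs myeloid development together with PU.1.

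Levels are FPKM, fragment counts scaled for gene length and library depth, as the authors deposited them. Tests used limma on log2(FPKM + 1) across 11688 genes, those whose 6 libraries averaged 1 FPKM or more, two-sided, with Benjamini-Hochberg adjustment over all of them and a threshold of 0.05. All 7 genes passed that filter. Of the 7, Irf7 was higher in LPS-MCM, Irf5 and Irf8 were lower, and Irf1, Irf2, Irf3 and Irf9 did not pass. Those 3 calls among 7 genes stand beside 20.5% of all tested genes called (6.72% higher and 13.8% lower). Of the called genes 32.8% were higher, against 49.9% after median-of-ratios scaling and 45.0% after quantile normalization. For 4 members the values of LPS-MCM and Hemin-MCM did not overlap, Irf7 and Irf9 being higher and Irf5 and Irf8 lower, beside 37.5% of all tested genes (12.8% higher and 24.7% lower).

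**Figure D1:**
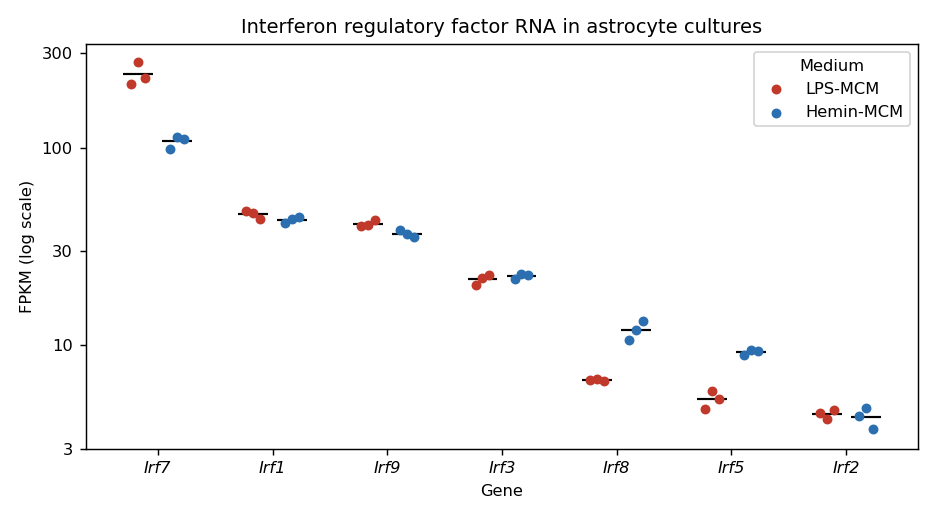
FPKM (log axis) of the 7 interferon regulatory factor genes, with 1 point per library, LPS-MCM in red and Hemin-MCM in blue, and a black line at the mean of 3 libraries. Irf7 stands at 209 to 270.5 FPKM in LPS-MCM and 98.5 to 114 FPKM in Hemin-MCM, Irf5 and Irf8 are lower in all 3 LPS-MCM libraries, and Irf1, Irf2 and Irf3 overlap.

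The promoter windows shown here are those of the 3 genes that passed and of the 2 other genes whose window holds an interferon-related motif, from RefSeq on GRCm38.p6, 250 bases before to 50 bases after an annotated start, 5′ to 3′ on the strand of the gene. Capitals mark matches, on either strand, to the gamma-activated sequence TTCNNNGAA, known from interferon-gamma responses, or to the core of the interferon-stimulated response element, GAAA and GAAA with any 2 bases between them, which interferon regulatory factors bind. The windows are those of Irf7 (chr7:141266375-141266674, minus strand), Irf5 (chr6:29526375-29526674, plus strand), Irf8 (chr8:120736108-120736407, plus strand), Irf1 (chr11:53769764-53770063, plus strand) and Irf2 (chr8:46739495-46739794, plus strand).
Irf7: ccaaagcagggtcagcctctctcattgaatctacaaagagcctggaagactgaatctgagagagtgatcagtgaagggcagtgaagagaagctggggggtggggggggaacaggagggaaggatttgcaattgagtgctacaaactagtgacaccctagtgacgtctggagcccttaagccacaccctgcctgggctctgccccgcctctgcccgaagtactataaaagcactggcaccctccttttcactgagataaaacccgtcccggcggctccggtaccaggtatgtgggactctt
Irf5: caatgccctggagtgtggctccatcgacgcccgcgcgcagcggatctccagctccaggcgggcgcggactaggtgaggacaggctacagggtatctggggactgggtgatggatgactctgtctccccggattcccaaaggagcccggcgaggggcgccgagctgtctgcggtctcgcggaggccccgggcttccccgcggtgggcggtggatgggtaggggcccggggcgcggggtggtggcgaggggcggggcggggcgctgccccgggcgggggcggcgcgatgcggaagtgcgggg
Irf8: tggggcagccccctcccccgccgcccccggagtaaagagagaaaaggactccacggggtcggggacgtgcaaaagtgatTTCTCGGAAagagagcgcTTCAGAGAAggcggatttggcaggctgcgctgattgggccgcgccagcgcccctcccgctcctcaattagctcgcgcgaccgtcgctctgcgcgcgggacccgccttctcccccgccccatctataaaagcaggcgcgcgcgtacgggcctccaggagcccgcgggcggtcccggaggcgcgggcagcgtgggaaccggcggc
Irf1: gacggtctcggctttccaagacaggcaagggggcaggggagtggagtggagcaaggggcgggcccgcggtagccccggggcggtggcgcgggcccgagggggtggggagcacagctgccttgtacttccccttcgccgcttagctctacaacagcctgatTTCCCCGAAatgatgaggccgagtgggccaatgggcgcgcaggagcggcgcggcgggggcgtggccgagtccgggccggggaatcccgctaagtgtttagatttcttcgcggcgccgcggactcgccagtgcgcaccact
Irf2: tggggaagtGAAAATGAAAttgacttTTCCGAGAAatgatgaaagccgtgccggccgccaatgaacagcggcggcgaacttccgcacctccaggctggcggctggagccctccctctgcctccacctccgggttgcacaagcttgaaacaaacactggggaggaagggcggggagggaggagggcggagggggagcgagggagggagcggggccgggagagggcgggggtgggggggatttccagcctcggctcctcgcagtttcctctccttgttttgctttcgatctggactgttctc
The Irf8 window held 2 matches to the gamma-activated sequence, TTCTCGGAA at position -171 and TTCAGAGAA at position -153, counted so that the base before the start is -1. The Irf1 window held 1, TTCCCCGAA at position -90. The Irf2 window held 1 match to each motif, GAAAATGAAA at position -241 and TTCCGAGAA at position -224, which do not overlap. Among all 32851 RefSeq windows of this length, 8.30% held TTCNNNGAA and 3.44% held the response element core. Over the 10 windows of the 7 genes (Irf1, Irf8 and Irf9 have a further window each, not shown), 3 held TTCNNNGAA and 1 held the response element core. A looser NF-kB-type pattern, GGG and CC with any 5 bases between them, matched 7 of the 10 windows and 50.8% of all windows. The genes with a TTCNNNGAA match did not share a direction, since Irf8 was lower in LPS-MCM and Irf1 and Irf2 did not pass. The Irf7 and Irf5 windows held neither interferon-related motif in these letters. The Irf5 window lies wholly inside the gene, which begins at 29526130, so the bases before the gene were not searched.

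Irf7 (chromosome 7, 141263183 to 141266499) encodes the factor that amplifies interferon-alpha and interferon-beta production. It had the highest FPKM of the 7 genes and was the only one that was higher in LPS-MCM in the limma test. Its level was 209, 270.5 and 226 FPKM in the LPS-MCM libraries and 98.5, 114 and 111 FPKM in the Hemin-MCM libraries. The lowest LPS-MCM library was well above the highest Hemin-MCM library. The means were 235 ± 31.9 FPKM in LPS-MCM and 108 ± 8.24 FPKM in Hemin-MCM (mean and SD of 3 libraries), a ratio of 2.18. The log2 difference was 1.11 ± 0.09 (SE; 95% interval 0.91 to 1.32; limma adjusted p = 2.5e-05). Of the 11688 genes, 49 had a difference at least as large and positive, Irf7 included. Irf7 was the only member that also passed a test against a 1.5-fold change (limma adjusted p = 0.0117, over the other alternatives 5.5e-10 to 0.00147).

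Irf3 (chromosome 7, 44997648 to 45002848) encodes the partner factor that is present before stimulation and starts the first wave of interferon-beta. Its level was 20.3, 22.0 and 22.7 FPKM in LPS-MCM and 21.7, 22.9 and 22.6 FPKM in Hemin-MCM. The groups overlapped, and the log2 difference was -0.05 ± 0.06 (95% interval -0.18 to 0.08; limma adjusted p = 0.609). Its sign depended on the scaling, with a difference of 0.01 after median-of-ratios scaling. Within a library, the FPKM of Irf7 was 10.3, 12.3 and 9.95 times that of Irf3 in LPS-MCM and 4.54, 4.97 and 4.92 times in Hemin-MCM.

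Irf9 (chromosome 14, 55603985 to 55610030), the DNA-binding subunit of ISGF3, was at 40.0, 40.6 and 42.9 FPKM in LPS-MCM and 38.3, 36.6 and 35.5 FPKM in Hemin-MCM. All 3 LPS-MCM libraries were above all 3 Hemin-MCM libraries, by a narrow margin. The log2 difference was 0.16 ± 0.05 (95% interval 0.04 to 0.27, not adjusted for the number of genes), and it missed the threshold (limma adjusted p = 0.0573). Over 16 alternatives that test against no change the adjusted p ran from 0.015 to 0.214 and was under the threshold in 2, median-of-ratios scaling (limma adjusted p = 0.015) and a voom fit to recovered counts (limma adjusted p = 0.0345).

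Irf1 (chromosome 11, 53770014 to 53778374) encodes an activator that interferon-gamma and NF-kB induce. Its level was 47.6, 46.5 and 43.8 FPKM in LPS-MCM and 41.8, 43.4 and 44.8 FPKM in Hemin-MCM. The ranges overlapped, and the log2 difference was 0.08 ± 0.05 (95% interval -0.03 to 0.20; limma adjusted p = 0.306). Irf2 (chromosome 8, 46739745 to 46847458), which encodes the factor that competes with IRF1 for its sites, was at 4.53, 4.23 and 4.74 FPKM in LPS-MCM and 4.40, 4.80 and 3.77 FPKM in Hemin-MCM. The Hemin-MCM libraries spanned the LPS-MCM ones, and the log2 difference was 0.05 ± 0.08 (95% interval -0.14 to 0.24; limma adjusted p = 0.735). Without the third Hemin-MCM library, the lowest of the 6, the Irf2 difference was -0.03.

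Irf5 (chromosome 6, 29526130 to 29541869), which acts downstream of Toll-like receptors and MyD88, was at 4.77, 5.90 and 5.35 FPKM in LPS-MCM and 8.92, 9.45 and 9.39 FPKM in Hemin-MCM. Every LPS-MCM library was below every Hemin-MCM library. The means were 5.34 ± 0.564 FPKM in LPS-MCM and 9.26 ± 0.290 FPKM in Hemin-MCM (mean and SD of 3 libraries), so the LPS-MCM mean was 57.7% of the Hemin-MCM mean. The log2 difference was -0.70 ± 0.07 (95% interval -0.86 to -0.53; limma adjusted p = 0.000124).

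Irf8 (chromosome 8, 120736358 to 120756694), a lineage factor of myeloid cells, was at 6.66, 6.78 and 6.59 FPKM in LPS-MCM and 10.64, 12.04 and 13.32 FPKM in Hemin-MCM. The LPS-MCM libraries lay close together and below all of the Hemin-MCM libraries, which were more widely spread. The LPS-MCM mean was 6.68 ± 0.0991 FPKM, 55.6% of the Hemin-MCM mean, whose SD was 1.34 FPKM (3 libraries each). The log2 difference was -0.75 ± 0.08 (95% interval -0.93 to -0.58; limma adjusted p = 9.04e-05). Neither Irf5 nor Irf8 passed the test against a 1.5-fold change (limma adjusted p = 1 for both, with 1.99e-06 and 5.52e-07 the lowest over the other alternatives). The FPKM of Irf8 was 1.40, 1.15 and 1.23 times that of Irf5 in LPS-MCM and 1.19, 1.27 and 1.42 times in Hemin-MCM, so the ratio between these genes overlapped between the groups.

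**Figure D2:**
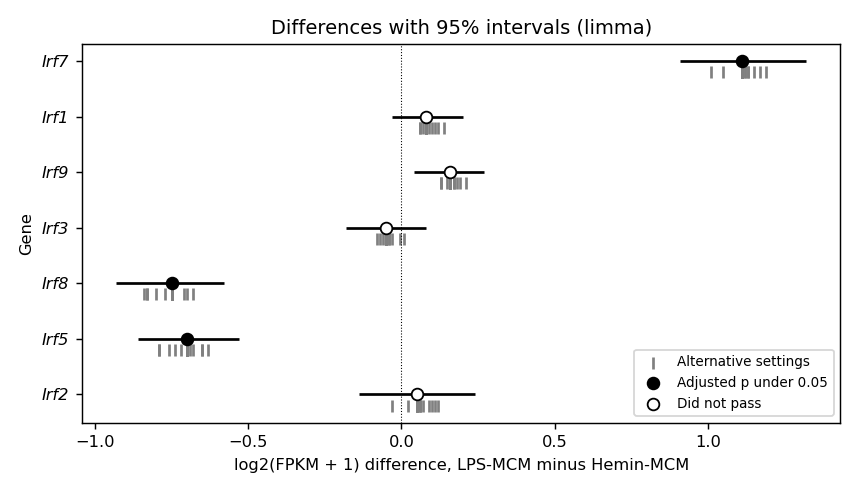
Difference in log2(FPKM + 1), LPS-MCM minus Hemin-MCM, for the 7 genes (points, filled where the limma adjusted p is under 0.05) with 95% intervals (lines), and the values under the alternative settings (grey ticks). The intervals of Irf7 (0.91 to 1.32), Irf8 (-0.93 to -0.58) and Irf5 (-0.86 to -0.53) lie away from 0.

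Both groups had the same order of levels, with Irf7 first, then Irf1, Irf9, Irf3, Irf8, Irf5 and Irf2 last. No 2 neighbours in that order overlapped between their 3 libraries in either group. Among the 11688 tested genes, the mean of Irf7 was above that of 97.6%, Irf1 above 87.6%, Irf9 above 85.4% and Irf3 above 73.7%, while Irf8 (47.8%), Irf5 (39.7%) and Irf2 (25.7%) stood below the middle. Place in this order depends on the gene length by which the authors divided. The counts and FPKM together put the model length of Irf2 at about 11773 bases, against 3965 bases for its longest transcript in GENCODE M21, and that of Irf3 at about 830 bases, against 2031. Lengths also differed for Irf5 (3319 bases, against 2241), Irf1 (3466, against 2137), Irf7 (1921, against 3240) and Irf9 (2778, against 3869). For Irf8 they were close (3550, against 3469). Each model length is the smallest the values allow, since counts were recovered only up to a common factor. In those smallest counts Irf2 was above Irf5 in all 6 libraries and above Irf8 in 5 of 6, the exception being the third Hemin-MCM library (1636 counts for Irf2 and 1743 for Irf8). Irf3 had 580, 631 and 696 counts in LPS-MCM and 604, 654 and 692 in Hemin-MCM, and it was below Irf8 and Irf2 in all 6 libraries, although its FPKM was above both. Places in the order and in the percentiles are therefore uncertain, above all those of Irf2 and Irf3. The size of FPKM ratios between members and of their shares in a sum depends on these lengths too. The length cancels in each gene's own difference between the groups.

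The summed FPKM of the 7 genes was 332, 396 and 352 in LPS-MCM and 224, 243 and 241 in Hemin-MCM. Without Irf7 the sum was 124, 126 and 126 in LPS-MCM and 126, 129 and 129 in Hemin-MCM. Irf7 made up 65.1 ± 2.84% of the sum in LPS-MCM and 45.7 ± 1.54% in Hemin-MCM (each with its SD over 3 libraries). Irf8 made up 1.86 ± 0.146% in LPS-MCM and 5.08 ± 0.410% in Hemin-MCM, and Irf5 made up 1.48 ± 0.0420% in LPS-MCM and 3.92 ± 0.0485% in Hemin-MCM. Shares of 1 sum move against each other, so the smaller share of Irf1 in LPS-MCM (12.8 ± 1.34%, and 18.4 ± 0.448% in Hemin-MCM) stands beside FPKM values that overlapped.

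**Figure D3:**
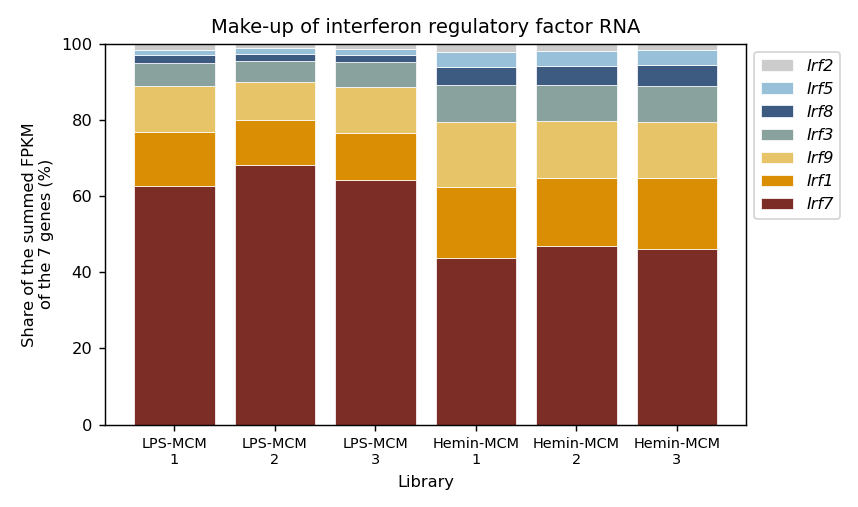
Share (%) of each of the 7 genes in their summed FPKM, 1 bar per library, LPS-MCM to the left of Hemin-MCM. Irf7 fills 62.7 to 68.2% of the bars of LPS-MCM and 43.9 to 46.9% of those of Hemin-MCM.

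Counts recovered from the FPKM values give a lower bound on the depth behind these levels. Within a gene the length cancels, and after division by the step of each library the values of 17253 of 17255 genes with a value above 0 (99.988%) were whole numbers to within 0.01, up to a common factor. Summed over genes, the libraries held 34490440, 34606976 and 36981848 counts in LPS-MCM and 33650999, 34508406 and 37009092 counts in Hemin-MCM. Irf7 rested on 13818, 17974 and 16033 counts in LPS-MCM and 6343, 7527 and 7877 in Hemin-MCM. Irf5 rested on 546, 677 and 655 counts in LPS-MCM and 992, 1078 and 1149 in Hemin-MCM, and Irf8 on 815, 833 and 863 counts in LPS-MCM and 1266, 1469 and 1743 in Hemin-MCM. At the lowest of these counts the counting error alone is 4.28% for Irf5, 3.50% for Irf8 and 1.26% for Irf7, below the differences described, and this covers counting error only. Irf4, a further family gene known from lymphocytes and some myeloid cells, had 6, 4 and 16 counts in LPS-MCM and 11, 10 and 4 in Hemin-MCM, too few for a comparison.

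Irf5 and Irf8 were lower in LPS-MCM, and so were most of the markers of microglia and macrophages taken here. Of 20 such markers, all of them tested, 15 were lower in LPS-MCM, 1 (Fcer1g) was higher and 4 (Itgam, Ptprc, Adgre1 and Cd53) did not pass. Over all tested genes 13.8% were lower and 6.72% higher. Beside a median of -0.04 over all tested genes, the median difference of the markers was -0.89. Their summed level was 2233 to 2545 FPKM in LPS-MCM and 4343 to 4676 FPKM in Hemin-MCM, and none of the 20 was at 0. The lysozyme gene Lyz2 supplied much of it (1540.2 ± 106 FPKM in LPS-MCM and 3303 ± 147 FPKM in Hemin-MCM, SD, 3 libraries each). Per 1000 FPKM of the marker sum without Lyz2, Irf8 had 7.94, 7.47 and 8.18 FPKM in LPS-MCM and 8.88, 9.65 and 10.7 FPKM in Hemin-MCM, and the groups did not overlap. With Lyz2 in the sum the values were 2.78, 2.67 and 2.95 in LPS-MCM and 2.45, 2.63 and 2.85 in Hemin-MCM and overlapped, so the ratio depends on the markers taken. For Irf5 the same ratio without Lyz2 was 5.69, 6.49 and 6.64 in LPS-MCM and 7.45, 7.57 and 7.56 in Hemin-MCM, and with Lyz2 it was 1.99, 2.32 and 2.40 in LPS-MCM and 2.05, 2.07 and 2.01 in Hemin-MCM. In bulk RNA, fewer cells of a type and less RNA per cell cannot be told apart, and the part of the myeloid cells in the Irf5 and Irf8 differences was not tested.

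**Figure D4:**
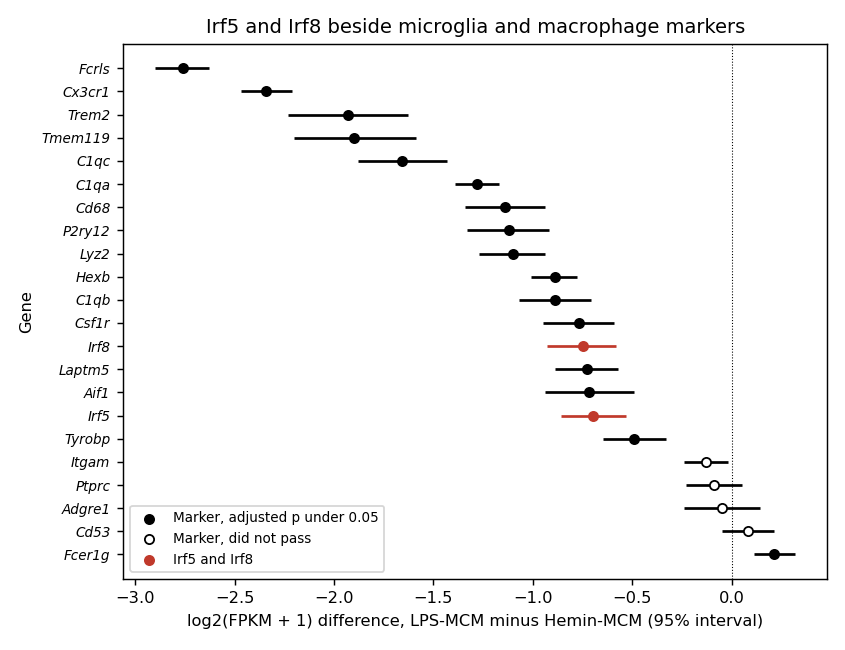
Difference in log2(FPKM + 1), LPS-MCM minus Hemin-MCM, with 95% intervals, for 20 microglia and macrophage markers (black, filled where the limma adjusted p is under 0.05) and for Irf5 and Irf8 (red). Irf8 (-0.75) and Irf5 (-0.70) lie within the range of the markers, whose median is -0.89.

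The libraries also carried astrocyte RNA. Gfap was at 456 ± 23.1 FPKM in LPS-MCM and 676 ± 28.6 FPKM in Hemin-MCM (mean and SD of 3 libraries). Aqp4 was at 346 ± 30.1 FPKM in LPS-MCM and 368 ± 14.6 FPKM in Hemin-MCM. The astrocyte markers summed to 1279 to 1321 FPKM in LPS-MCM and 1582 to 1669 FPKM in Hemin-MCM. That was below the microglia and macrophage marker sum, but above it once Lyz2 was left out (806 to 908 FPKM in LPS-MCM and 1198 to 1248 FPKM in Hemin-MCM). The lists differ in length, and the share of RNA from each cell type was not tested. Of 9 tested astrocyte markers 5 were lower and 1 was higher, and of 5 tested ependymal markers all 5 were lower. These counts stand beside 13.8% lower and 6.72% higher of all tested genes. The ependymal markers summed to 169.9 to 185 FPKM in LPS-MCM and 248 to 255 FPKM in Hemin-MCM. The remaining marker lists summed to at most 84.6 FPKM in any library (oligodendrocyte lineage, with 1 of 6 tested lower). Of 3 tested neuronal markers 1 was higher and 1 lower. Of 6 fibroblast markers 2 were higher, and 0 of 1 endothelial or pericyte markers was called. None of the 4 T and B cell markers in the table reached the filter, and Cd3g was at 0.

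Genes that act with the interferon regulatory factors were counted in lists set beside them, 122 distinct tested genes besides the 7 members. Of these, 63 were higher and 11 lower in LPS-MCM. Over all tested genes 6.72% were higher and 13.8% lower, and the list counts below stand beside these shares. Differences of single genes are given as log2 differences ± SE, and medians are over the tested genes of a list, beside a median of -0.04 over all tested genes. Interferon ligands were hardly represented. Interferon-beta (Ifnb1) had 0, 1 and 1 counts in LPS-MCM and 0, 2 and 0 in Hemin-MCM, Ifnz was as low, and Ifne was at 0 in all 6 libraries. Of 11 tested genes of interferon receptors and the JAK-STAT pathway, 4 were higher, namely Jak2, Stat2, Ifnar2 and Il10rb, and none was lower (median difference 0.15). The receptor kinase gene Jak2 was at 23.6 ± 0.852 FPKM in LPS-MCM and 14.5 ± 0.867 FPKM in Hemin-MCM, and the receptor subunit gene Ifnar2 at 16.1 ± 1.14 FPKM in LPS-MCM and 12.5 ± 0.210 FPKM in Hemin-MCM (mean and SD of 3 libraries). The IRF9 partner gene Stat2 differed by 0.28 ± 0.05 (limma adjusted p = 0.00196). None of the 11 genes was called in the test against a 1.5-fold change.

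Upstream of IRF3, IRF5 and IRF7, 10 of 29 tested sensor, adaptor and kinase genes were higher and 3, Tlr7, Irak4 and the DNA-sensing adaptor gene Sting1, were lower (median 0.12). In the test against a 1.5-fold change 1 was higher and 0 were lower, and without the third Hemin-MCM library 1 was lower in the test against no change. Both kinases that phosphorylate IRF3 and IRF7 were among the higher genes. Ikbke, which encodes IKK-epsilon, was at 45.6 ± 1.16 FPKM in LPS-MCM and 30.7 ± 1.91 FPKM in Hemin-MCM (log2 difference 0.56 ± 0.06), and Tbk1 at 30.7 ± 1.39 FPKM in LPS-MCM and 23.5 ± 0.822 FPKM in Hemin-MCM (log2 difference 0.37 ± 0.05; levels with SD and differences with SE, n = 3 each). The LPS co-receptor gene Cd14 differed by 0.88 ± 0.06, the RNA sensor gene Ifih1 by 0.41 ± 0.06 and the kinase gene Irak2 by 0.39 ± 0.07. Of 19 tested feedback inhibitors, 11 were higher and none was lower (median 0.27), and 2 were higher in the test against a 1.5-fold change. Among them Tnfaip3 differed by 1.11 ± 0.06, Socs1, a JAK inhibitor, by 1.08 ± 0.10, Tnip1 by 0.60 ± 0.05, Ptpn2 by 0.52 ± 0.07 and Socs3 by 0.43 ± 0.05. The IRF2-binding protein genes Irf2bp1, Irf2bp2 and Irf2bpl did not pass, at differences of -0.06, -0.11 and 0.18, although 1 of the 3 was called higher after median-of-ratios scaling and with voom.

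Among target genes, 22 of 26 tested genes of the ISGF3 type were higher and none was lower, with a median of 0.39, while 4 (Ifit2, Cmpk2, Bst2 and Samd9l) did not pass. The nucleic acid sensor gene Zbp1 differed by 0.82 ± 0.06, Ifi44 by 0.61 ± 0.05, Ifit1 by 0.53 ± 0.06, the ubiquitin ligase gene Dtx3l by 0.44 ± 0.05 and Oasl2 by 0.42 ± 0.05. Ifit and Oas genes have close relatives among which the counting can divide reads, so their values are uncertain. Of 18 tested genes known as IRF1 targets, 12 were higher and none was lower (median 0.32), although Irf1 itself did not pass. They include Nos2, the inducible nitric oxide synthase (2.39 ± 0.08), the chemokine genes Ccl5 (1.39 ± 0.11) and Cxcl9 (1.00 ± 0.12), Socs1, and Gbp5 (0.54 ± 0.06), whereas the immunoproteasome genes Psmb8, Psmb9 and Psmb10 did not pass. In the test against a 1.5-fold change, 0 of the ISGF3-type and 3 of the IRF1 target genes were called higher.

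All 6 tested genes of the IRF5 target list were higher in LPS-MCM while Irf5 was lower, and all 6 also passed the test against a 1.5-fold change. They are the cytokine and chemokine genes Il6 (4.12 ± 0.07), Ccl3 (2.89 ± 0.11), Il1b (2.84 ± 0.10), Ccl4 (2.61 ± 0.17), Tnf (2.03 ± 0.08) and Ccl5, all of which other factors including NF-kB also control. Of 16 tested partners and linked genes of IRF8 in myeloid cells, 8 were lower and 4 were higher (median -0.24), and 3 were lower and 2 higher in the test against a 1.5-fold change. The lower ones include the fractalkine receptor gene Cx3cr1 (-2.34 ± 0.06), P2ry12 (-1.12 ± 0.09) and Naip2 (-1.03 ± 0.07), and the higher ones are Il1b, Cybb (0.85 ± 0.05), Ccl2 and Tlr2. The list shares Cx3cr1, P2ry12, Aif1 and Csf1r with the microglia markers, and their part in its count was not tested. Spi1, the gene of the IRF8 partner PU.1, did not pass.

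**Figure D5:**
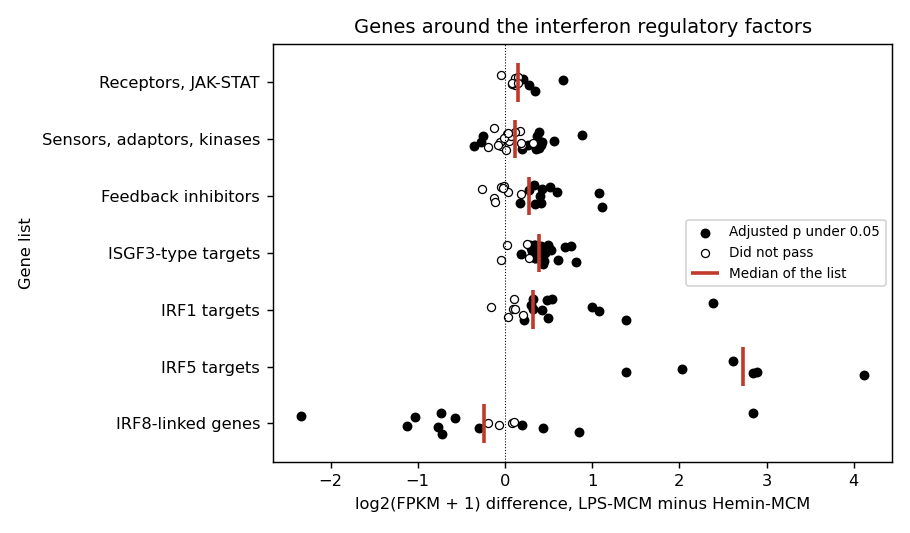
Difference in log2(FPKM + 1), LPS-MCM minus Hemin-MCM, of tested genes in 7 lists around the interferon regulatory factors (points, filled where the limma adjusted p is under 0.05), with the median of each list in red. The median is 0.39 for ISGF3-type targets, 2.72 for IRF5 targets and -0.24 for IRF8-linked genes.

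The genes with the most similar profiles were found by the root mean square distance between log2(FPKM + 1) values centred on each gene's mean, over the 6 libraries. For Irf7 they were Mmp9 (distance 0.0284), Fcgr2b (0.0818) and Acod1 (0.0832), which encode a matrix metalloproteinase, an inhibitory Fc receptor and the enzyme that makes itaconate. For Irf5 they were the adenylate kinase gene Ak7 (0.0333), Arhgap45 (0.0375) and Adcy7 (0.0393). For Irf8 they were Uhrf1 (0.0437), Gmpr (0.0597) and Parvb (0.0600). Distances under 0.1 were found for 5 genes with Irf7, 89 with Irf5 and 36 with Irf8. The size of the group difference enters this distance. Differences at or above that of Irf7 were held by 49 genes, at or below that of Irf5 by 158 and at or below that of Irf8 by 123. These distances are a description over 6 libraries in which the group difference is shared.

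Several members overlap another gene in GENCODE M21 (GRCm38), and whether the counting used strand is not given in the sources used here. Irf5 and Tnpo3 overlap by 1045 bases on opposite strands, and Tnpo3 was at 23.1 ± 0.373 FPKM in LPS-MCM and 23.1 ± 0.202 FPKM in Hemin-MCM (mean and SD of 3 libraries; limma adjusted p = 0.998). Irf8 lies wholly inside the annotated locus Gm20388 on the same strand, an overlap of 20337 bases. Irf2 and Gm45479 overlap by 1723 bases and Irf1 and Gm17334 by 907 bases, both on opposite strands. These 3 neighbours had no value to set beside the members, so what their overlap adds to Irf8, Irf2 and Irf1 was not tested. Irf3 and Bcl2l12 overlap by 1065 bases on opposite strands, Irf7 and Phrf1 by 45 bases on opposite strands, and Irf9 and Rnf31 by 123 bases on the same strand. Bcl2l12 (-0.02 ± 0.08), Phrf1 (0.05 ± 0.05) and Rnf31 (0.03 ± 0.08) did not pass.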

How the data were processed

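RNA of astrocyte cultures was measured by RNA-seq with a stranded kit that selects polyadenylated RNA, per the labels' protocols. The authors deposited 1 table of FPKM values. The build mm10 and the tool DESeq, with no version, are named in the submitters' processing notes, while no aligner, counting tool or annotation is given in the sources used here. A column was tied to a sample where its name gave the treatment and replicate number of that sample alone, and 3 unmatched value columns were not used, so the planned comparisons with resting-microglia medium were not made. The 6 matched libraries were fitted in limma 3.58.1 (R 4.3.3) on log2(FPKM + 1), with 1 mean per group, moderated variances with a mean-variance trend and a filter at a mean of 1 FPKM. On this scale the change of genes with low values is understated. Counts recovered from the FPKM steps were fitted with voom weights as an alternative added after seeing the data. The limma fit and the recovery of counts were tested on simulated data, and the voom fit was not. Medians of lists are over tested genes. Named genes are the 7 members, up to 5 genes per list by smallest adjusted p, the 3 nearest profiles of each member that passed and abundant markers. Other list genes named, the ratios to marker sums and the overlapping genes were chosen after their values were seen. Some items of these lists are not reported here. The members and lists were chosen with earlier results of these data known.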

Additional observations from a re-analysis of the deposited data

How the results depend on the processing

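Irf7, Irf5 and Irf8 kept their direction and their call in all 16 alternatives that test against no change (other pseudocounts and filters, scaling, moderation, the replicate block, voom on recovered counts and leaving out each library). Their log2 differences ran from 1.01 to 1.19 for Irf7, -0.79 to -0.63 for Irf5 and -0.84 to -0.68 for Irf8. Against a 1.5-fold change Irf5 (-0.70 ± 0.07, SE) and Irf8 (-0.75 ± 0.08, SE) were no longer called. Both estimates were beyond a 1.5-fold change in size, but neither passed that test after adjustment over all tested genes. That test was run on log2(FPKM + 1) only. It called 137 genes, 72 higher and 65 lower, against 2400 genes, 786 higher and 1614 lower, in the test against no change. Irf9 was called after median-of-ratios scaling (0.21) and with voom (0.17), and the cause was not tested. Irf3 turned to 0.01 after median-of-ratios scaling, which also put the LPS-MCM level of Irf8 at 6.80 FPKM, against 6.68. Leaving out single libraries gave 1058 to 1652 genes lower (1058 without the third Hemin-MCM library) and an Irf2 difference of -0.03 to 0.11. Median-of-ratios scaling made 49.9% of called genes higher and quantile normalization 45.0%, against 32.8%. Voom called 2757 genes. Deviations of same-numbered libraries from their group means correlated at 0.0796, 0.107 and -0.106. Those of libraries with different numbers correlated at -0.212 to 0.126. With so few libraries these values show no pairing by number and cannot exclude one. With the replicate block 2330 genes were called and no member's call changed. Irf2 has no value at a filter of 5 FPKM. A fit of all 9 libraries was not run.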
